A study of Mus musculus with 8 samples.

Results

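The genes described here encode structural proteins of the extracellular matrix of the colon: collagens, laminins and nidogens, fibulins, fibrillins and elastin, thrombospondins, and a set of proteoglycans and matrix glycoproteins. They were matched in the array annotation by gene symbol, with a list of symbols drawn up when earlier results of these data were known. The rule found 56 genes among the 8251 genes with a probe set of their own, on 80 of the 12422 probe sets of the array. A gene with several probe sets, as 18 of the 56 were, was read by the probe set with the highest mean over all arrays. RNA of whole colon was measured on Affymetrix MG_U74Av2 arrays in 8 pools of mice, 1 array a pool, and the deposited values are probe-set intensities on a linear scale. The groups were C57BL/6J wild type, C57BL/6J-Il10tm1Cgn, C3H/HeJBir wild type and C3H/HeJBir-Il10tm1Cgn, with 2 pools in each, called sample 1 and sample 2 by the labels. Il10tm1Cgn is a targeted null allele of the gene for interleukin 10, and its carriers are called Il10-null below. C3H/HeJBir, a substrain of C3H/HeJ, is also known to carry that strain's defective Tlr4 allele, in both genotypes. Each C57BL/6J pool held RNA of 5 animals. In C3H/HeJBir, sample 1 of Il10-null also held RNA of 5 animals, and the other 3 pools held RNA of 4. An age, 4 weeks, was given for sample 2 of C57BL/6J wild type alone, and treatment, sex and housing were not stated for any pool.

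The matrix of the gut wall has several layers. Fibrillar collagens (types I, III and V) form the cables of the submucosa and of the connective tissue between muscle bundles, and fibroblasts and smooth muscle cells make most of them. Type IV collagen and the laminins form networks that make up the basement membranes beneath the epithelium and around vessels, nerves and muscle cells. Small proteoglycans coat the fibrils, elastin and fibulins give recoil, and fibronectin, tenascin C and SPARC are adhesive or matricellular proteins whose amounts often shift in inflamed or healing tissue. Mice without interleukin 10 are a standard model of colitis, in which the C3H/HeJBir background is known for more severe disease than C57BL/6J, so the comparisons asked what the missing cytokine and the strain background did to gene expression in the colon.

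The arrays carried colon RNA by their markers. Car1 (carbonic anhydrase 1 of colonocytes) read 6956 to 8533 over the 8 pools, and the 14 colon epithelium markers on the array summed to between 52213 and 61033. The probe set for Il10 itself read 5.43 to 10.9 in the wild-type pools and 22.0 to 51.7 in the pools labelled Il10-null. It was thus higher in every pool labelled Il10-null. Whether its probes lie inside or outside the altered part of the allele could not be checked, so these values do not check the genotype, and the groups are named by their labels throughout. Xist, the RNA of the inactive X chromosome, read 243 to 452 in all 4 sample 1 pools and 2.84 to 12.9 in all 4 sample 2 pools, so the sample 1 and sample 2 pools differed in this as well. The 4 sample 2 pools were hybridised on 1 day, the sample 1 wild-type pools on another and the sample 1 Il10-null pools on yet another. Wild-type and Il10-null pools were therefore compared within a day for sample 2 only, whereas each strain difference was within a day. The 2 pools of every group thus differed in Xist and in day, and the SDs and main tests below count both as spread between pools. Sample 1 of C3H/HeJBir Il10-null stood apart, with a mean rank correlation (Spearman) of 0.915 to the other arrays against 0.932 to 0.945 for the rest. Relative to their means over the 8 pools, exocrine pancreas markers were higher there by a median of 1.88 on the log2 scale and interferon-gamma-induced genes by 1.34. Of the pancreas markers, Cela1 (1118) and Clps (254) went the other way, below their means of 1203 and 281. Pancreas markers were also high in sample 1 of C57BL/6J Il10-null, at a median of 1.21. In sample 1 of C3H/HeJBir Il10-null, neutrophil and macrophage markers were higher by 0.92, and enteric neuron and glia markers had a median of -0.85. The 0.92 came from 5 tested genes that differed: S100a8 (581), Lyz2 (516) and Cd14 (3829.5) had their highest value in that pool, Cd68 its lowest (27.8), and Csf1r (165) lay between.

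Of the 56 matrix genes, 40 passed the filter on low values, a mean intensity over all arrays of 37.0 or more, and these were tested. Tests used limma on log2 of the intensity plus 11.07, and a call was an adjusted p under 0.05 over all 7453 tested probe sets. By class, the tested genes were 5 of 8 fibrillar collagens, 6 of 9 network and basement membrane collagens, 9 of 14 other collagens, 8 of 11 laminins and nidogens, 3 of 4 elastic fibre proteins, 4 of 4 proteoglycans and 5 of 6 adhesive and matricellular glycoproteins. Their means ran from 37.2 to 1960 (Dcn). Just inside the filter were Col4a5 at 37.2 and Vcan at 37.7, and just outside it Col12a1 at 35.6 and Col9a1 at 35.4. The brightness of a probe set depends on its probes, so intensities are compared between pools of 1 gene and not between genes.

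**Figure D1:**
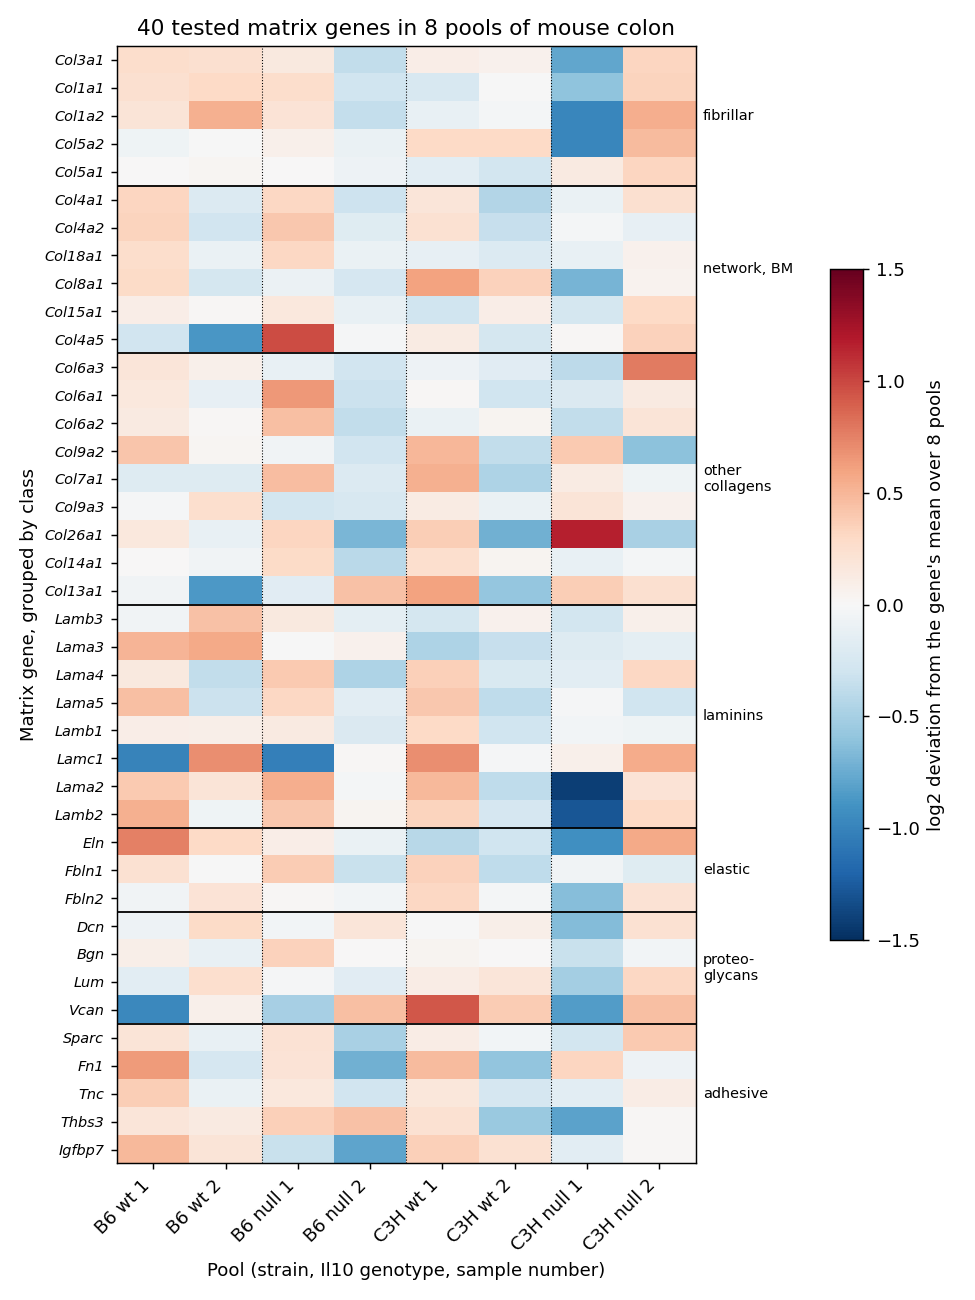
Each of the 40 tested matrix genes (rows, by class) in each of the 8 pools (columns; B6 is C57BL/6J, C3H is C3H/HeJBir, wt wild type, null Il10-null, and the number is the sample number). Colour is the log2 difference of a pool from the gene's mean over the pools, on a scale that ends at 1.5 in either direction; no gene departed by more than 1.41, and the C3H null 1 column holds the lowest value of 15 genes.

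The 5 tested fibrillar collagens are those of types I, III and V. Col3a1 encodes type III collagen of distensible organs. It read 1482 and 1459 in the C57BL/6J wild-type pools, 1366 and 952 in C57BL/6J Il10-null, 1327 and 1293 in C3H/HeJBir wild type, and 716 and 1552 in C3H/HeJBir Il10-null, with sample 1 first in each pair here and below. Wild-type pools of a strain thus lay close together (1471 ± 16.4 and 1309.6 ± 24.0, SD, n = 2), while the Il10-null pools were spread widely (1159 ± 293 and 1134 ± 591, n = 2) and both the lowest and the highest pool were C3H/HeJBir Il10-null. Col1a1, 1 of the chains of type I collagen, read 737 and 771, 752 and 503, 527 and 622, and 407 and 786 in the same order of groups. Col1a2, the other chain of type I collagen, read 469.6 and 598, 477 and 319.6, 380.5 and 401, and 203 and 605. Both type I genes therefore had the same 2 extremes as Col3a1, by the probe sets read here. Other probe sets of these genes did not repeat both extremes. That of Col1a2 (mean 282) had the C3H/HeJBir Il10-null pools in reverse order, at 373 and 250. That of Col1a1 (mean 422) was highest in sample 2 of that group (725) but lowest in sample 2 of C57BL/6J wild type (316). Those of Col3a1 (means 134 and 96.8) were highest in C3H/HeJBir wild type, at 191 in sample 1 and 122 in sample 2. Col5a2 and Col5a1 encode type V collagen, which starts the assembly of fibrils. Col5a2 read 184 in sample 1 of C3H/HeJBir Il10-null and 348 to 521 elsewhere, whereas Col5a1 stayed between 168 and 259 in all pools and read 226 in that pool.

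The promoter windows of Col1a2 and Col3a1 are shown because these genes, by the probe set with the highest mean, were both lowest in 1 Il10-null pool and highest in the other. They are the 250 bases before the annotated start in RefSeq, mouse build GRCm38.p6, read 5′ to 3′ on the strand of the gene: chr6:4505368-4505617, plus strand, for Col1a2 and chr1:45311288-45311537, plus strand, for Col3a1. Capitals mark matches to any of 3 motifs, searched on both strands: CCAAT (or ATTGG on the reverse strand), TATAAA (or TTTATA) and GGGCGG (or CCGCCC).
Col1a2: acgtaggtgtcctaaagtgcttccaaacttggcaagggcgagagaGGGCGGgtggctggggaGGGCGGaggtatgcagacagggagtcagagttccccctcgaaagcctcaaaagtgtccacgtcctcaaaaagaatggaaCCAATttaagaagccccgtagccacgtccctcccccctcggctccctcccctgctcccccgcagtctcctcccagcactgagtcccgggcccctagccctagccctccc
Col3a1: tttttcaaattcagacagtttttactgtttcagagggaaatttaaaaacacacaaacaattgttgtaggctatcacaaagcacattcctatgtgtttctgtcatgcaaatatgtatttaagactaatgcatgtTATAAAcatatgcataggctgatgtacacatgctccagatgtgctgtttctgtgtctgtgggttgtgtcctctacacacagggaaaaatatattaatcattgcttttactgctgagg
Col1a2 held a CCAAT and 2 GGGCGG matches, and Col3a1 held a TATAAA match only, so these windows shared none of the motifs. Of the 56 matrix genes, 37 were in the promoter table, with 43 windows. CCAAT was found in 14 of the 43 windows (32.6%, against 33.8% of all 32851 windows), TATAAA in 8 (18.6% against 12.4%) and GGGCGG in 23 (53.5% against 32.7%). Such a match describes the letters and is not evidence of binding.

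Among the network and basement membrane collagens, Col4a1 and Col4a2 encode the main chains of type IV collagen. They lie head to head on opposite strands of chromosome 8, where their annotated transcripts start within 22 shared bases. Col4a1 read 783 and 539, 776 and 499.7, 706 and 456, and 578 and 735. Col4a2 read 385 and 248, 407 and 266, 358 and 236, and 296 and 279. In 3 of the 4 groups both were higher in sample 1 than in sample 2, and Col4a2 was so in all 4. Col18a1, the source of endostatin in basement membrane zones, ran from 121 to 178. Col8a1, a short-chain network collagen of vessels, was lowest in sample 1 of C3H/HeJBir Il10-null at 61.3 and highest in sample 1 of C3H/HeJBir wild type at 166. Col4a5, the X-linked chain mutated in Alport syndrome, lay near the filter, with 26.0 and 13.6 in C57BL/6J wild type and 78.4 and 33.6 in C57BL/6J Il10-null.

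The 9 other tested collagens include type VI, which forms beaded microfibrils around cells. Col6a3 read 434 and 401, 351 and 309, 359 and 337, and 287 and 662. Col6a1 read 374 and 306, 529.8 and 266, 337 and 269, and 285 and 367. The high sample 2 pool of C3H/HeJBir Il10-null was the highest of all for Col6a3, whereas Col6a1 was highest in sample 1 of C57BL/6J Il10-null. Col7a1, the anchoring fibril collagen, ran from 70.8 to 152. Col26a1 read 166 in sample 1 of C3H/HeJBir Il10-null, its highest pool, and 37.2 to 91.0 in the others.

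Of the laminins, Lamb3 and Lama3 encode chains of laminin-332 of epithelial basement membranes. Lamb3 read 806 and 1137, 923 and 753, 695 and 877, and 691 and 881, with overlapping groups throughout. Lama3 read 250.1 and 262 in C57BL/6J wild type, 172 and 181 in C57BL/6J Il10-null, 122 and 133 in C3H/HeJBir wild type, and 150.0 and 155 in C3H/HeJBir Il10-null. No group of Lama3 overlapped another, and the pools of a group lay close together. The share of all probe sets with 4 groups apart was not counted, and no difference of Lama3 was called. In order of mean the groups were C57BL/6J wild type (256 ± 8.14), C57BL/6J Il10-null (177 ± 6.13), C3H/HeJBir Il10-null (153 ± 3.76) and C3H/HeJBir wild type (127 ± 7.88, SD, n = 2). Lama5, the main adult epithelial alpha chain, was higher in sample 1 in every group (111 to 158 against 83.6 to 99.5 in sample 2). Lama2, the muscle alpha chain, and Lamb2, a beta chain of muscle and nerve, were both at 13.5 in sample 1 of C3H/HeJBir Il10-null, against 39.1 to 84.1 for Lama2 and 38.9 to 75.3 for Lamb2 in the other pools.

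Elastin (Eln) read 824 and 597, 519.6 and 451, 358 and 392, and 249.8 and 722. In the wild types it was higher in C57BL/6J (710.3 ± 160.3, SD, n = 2) than in C3H/HeJBir (375 ± 24.0), and the C3H/HeJBir Il10-null pools spanned nearly the whole range. By the other Eln probe set (mean 54.7) these pools read 49.7 and 35.2, in reverse order, and sample 2 was the lowest of all pools. Fbln1, which binds elastin and basement membranes, was higher in sample 1 in all 4 groups (269.6 to 369 against 213 to 280.2). Among the proteoglycans, decorin (Dcn) read 1821 and 2353, 1874 and 2185, 1914 and 2050.0, and 1225 and 2256. Biglycan (Bgn, on chromosome X) ran from 374 to 603 and was lowest in the same pool as Dcn. Lumican (Lum) was also lowest there, at 280.2, against 358 to 504 elsewhere. Versican (Vcan), a large proteoglycan, was near the filter, between 11.6 and 73.8.

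Of the adhesive and matricellular glycoproteins, Sparc, which encodes a collagen-binding protein, read 558 and 450.4, 565 and 342, 526 and 472, and 400.0 and 641. Fibronectin (Fn1) read 486 and 258, 357 and 184, 434 and 202, and 389 and 291, and was the higher in sample 1 in every group. Igfbp7 encodes a secreted protein that binds insulin-like growth factors. It read 93.2 and 74.1 in C57BL/6J wild type, 47.9 and 32.1 in C57BL/6J Il10-null, 84.6 and 76.2 in C3H/HeJBir wild type, and 55.5 and 64.6 in C3H/HeJBir Il10-null. Every Il10-null pool of Igfbp7 was below every wild-type pool. Of all tested probe sets, 1.99% were lower in every Il10-null pool within each strain, as was 1 of the 40 matrix genes (2.5%). The promoter window of Igfbp7 (chr5:77408046-77408295, minus strand, same build and capitals) is shown as that of the only tested matrix gene with this separation in both strains.
Igfbp7: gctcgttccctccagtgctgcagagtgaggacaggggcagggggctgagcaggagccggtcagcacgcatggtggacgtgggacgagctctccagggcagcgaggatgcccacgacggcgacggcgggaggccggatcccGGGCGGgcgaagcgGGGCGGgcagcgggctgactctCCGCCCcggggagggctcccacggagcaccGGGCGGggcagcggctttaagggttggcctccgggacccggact
Igfbp7 held 4 GGGCGG matches, 1 of them on the reverse strand, and neither CCAAT nor TATAAA.

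**Figure D2:**
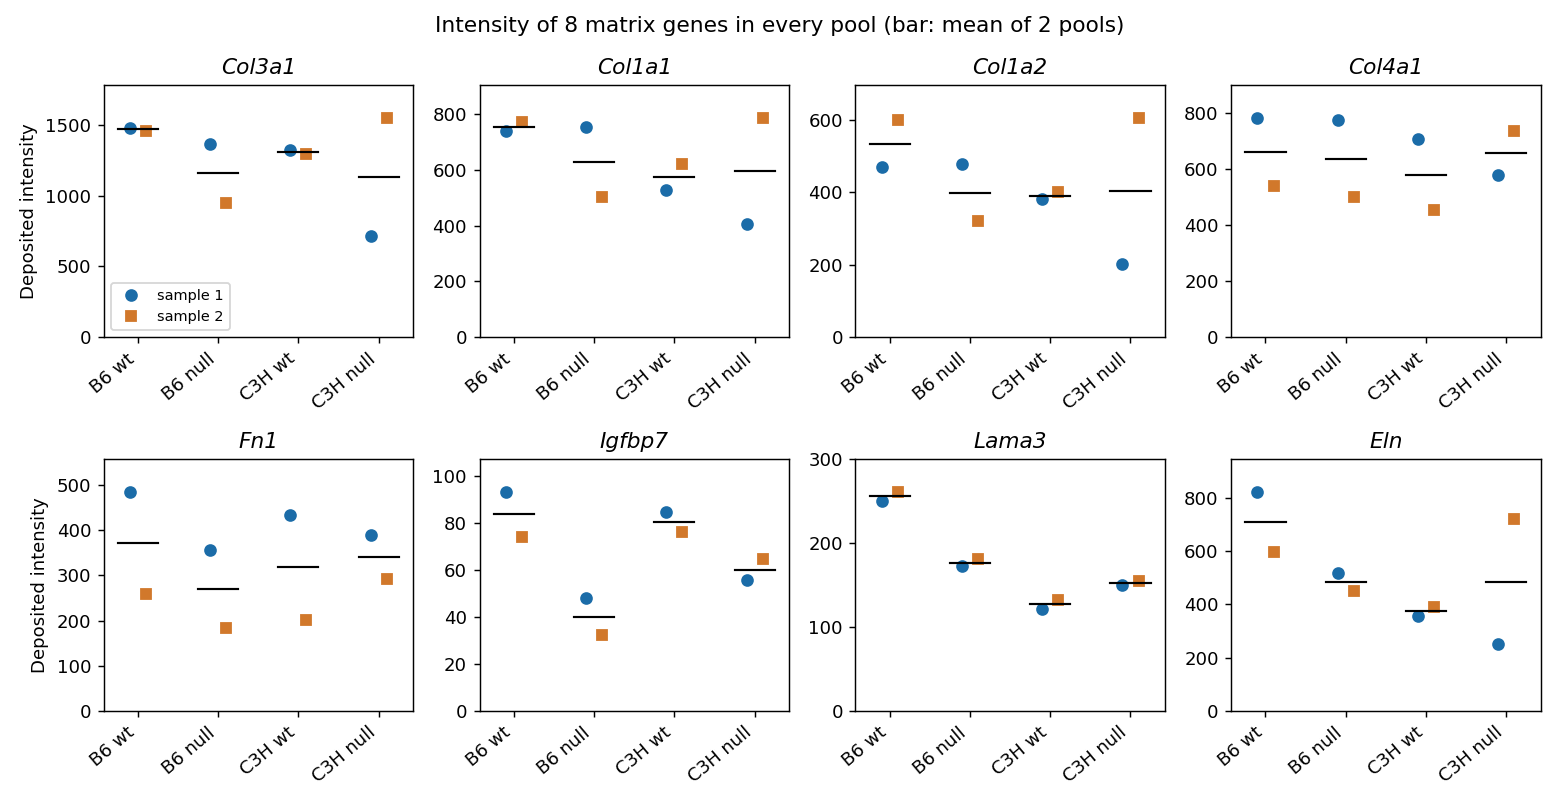
Intensity (linear scale, from 0) of 8 matrix genes in the 8 pools, with circles for sample 1, squares for sample 2 and a bar at the mean of the 2 pools of a group. By the probe sets shown, Col3a1, Col1a1 and Col1a2 have their lowest and highest pool in C3H/HeJBir Il10-null, which their other probe sets did not repeat in full. The pools of each group of Lama3 lie close together and its 4 groups do not overlap, a pattern not counted over all probe sets.

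Pool by pool, the matrix genes differed between the sample numbers in 3 of the 4 groups, C57BL/6J wild type being the closest. As the median log2 difference of the 40 genes from their own means, the pools stood at 0.17 and 0.02 in C57BL/6J wild type, 0.18 and -0.19 in C57BL/6J Il10-null, 0.20 and -0.22 in C3H/HeJBir wild type, and -0.20 and 0.20 in C3H/HeJBir Il10-null. In 3 groups sample 1 was thus the higher, and in C3H/HeJBir Il10-null it was the lower. There, sample 1 held the lowest value of 15 of the 40 genes (20.8% of all tested probe sets had their lowest value in it) and sample 2 the highest value of 9 (7.65% of all). The classes did not differ alike in that sample 1 pool. Fibrillar collagens stood at a median of -0.78, elastic fibre proteins at -0.63 and proteoglycans at -0.58, against -0.17 for laminins, -0.11 for network and basement membrane collagens and 0.12 for the other collagens. Across all 4 groups, sample 1 was above sample 2 for 7 of the 40 genes (Col4a2, Col9a2, Col26a1, Lama5, Lamb1, Fbln1 and Fn1), against 17.9% of all tested probe sets. Sample 2 was above sample 1 for 2 (Lama3 and Dcn), against 12.4%.

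Smooth muscle markers were lowest and highest in the same pools as the fibrillar collagens, each gene being read by the probe set with the highest mean. Of 15 written, 11 were on the array and 10 were tested, and none of the 11 was listed at 0. Their median log2 differences were 0.21 and 0.12, 0.16 and -0.22, 0.07 and -0.12, and -0.53 and 0.26 in the order above, and their summed intensity ran from 10106 in sample 1 of C3H/HeJBir Il10-null to 17721 in sample 2 of that group. For the fibrillar collagens the same medians were 0.19 and 0.24, 0.15 and -0.30, -0.11 and -0.00, and -0.78 and 0.33. Fibroblast markers, 9 tested of 11 on the array, ran the other way round in C3H/HeJBir Il10-null, at 0.10 and -0.19, and their sums ran from 1924 to 2349. The part of smooth muscle content in these values was not tested. In RNA of whole tissue, fewer cells of a type and less RNA per cell cannot be told apart.

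**Figure D3:**
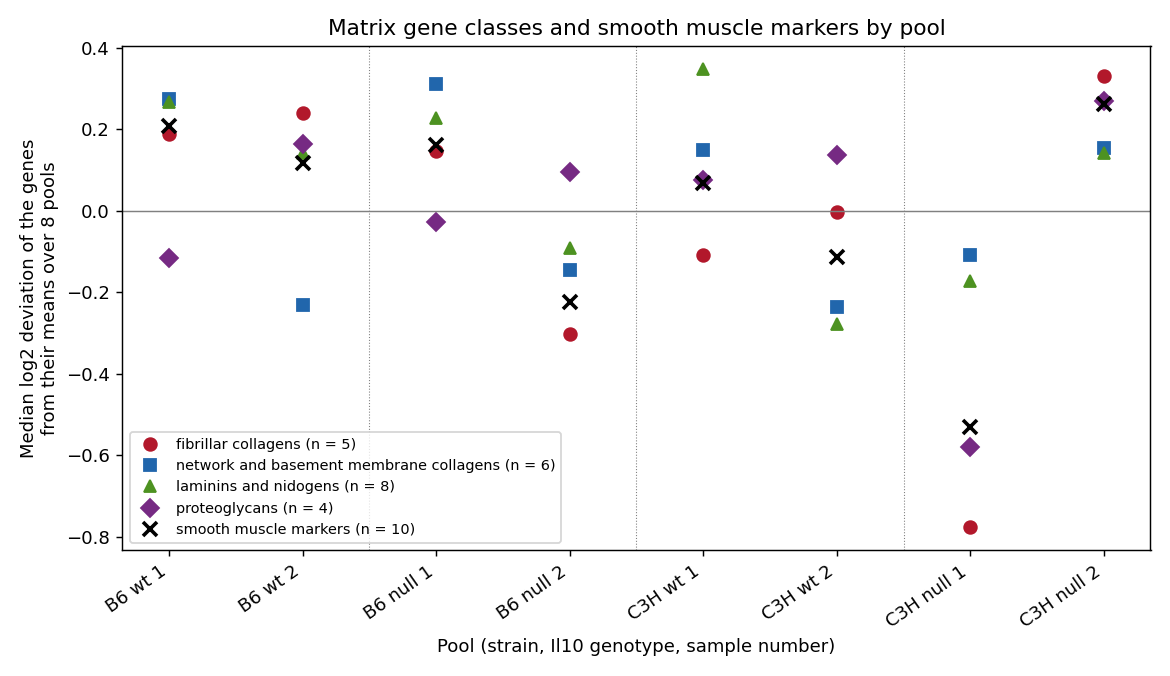
Median log2 difference from the gene means over the 8 pools for 4 classes of matrix genes (5 fibrillar collagens; 6 network and basement membrane (BM) collagens; 8 laminins; 4 proteoglycans) and, as crosses, 10 smooth muscle markers. The fibrillar collagens and the smooth muscle markers are both lowest in sample 1 of C3H/HeJBir Il10-null, at -0.78 and -0.53, and highest in sample 2 of that group, at 0.33 and 0.26.

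In C57BL/6J, no matrix gene passed the test for a difference between the pools labelled Il10-null and wild type. Igfbp7 was lower in Il10-null, with a difference of -0.90 ± 0.25 on the log2 scale (SE, n = 2 pools a group; 95% interval -1.48 to -0.32), which is 0.535 of the wild-type level on the scale of the test, with limma's adjusted p at 1.00. Lama3 had a difference of -0.51 ± 0.21 (interval -0.99 to -0.03), Eln of -0.52 ± 0.44 and Fn1 of -0.45 ± 0.47. Upward, the largest were the basement membrane collagen Col4a5 at 1.06 ± 0.37 (interval 0.21 to 1.92), the transmembrane collagen Col13a1 at 0.59 ± 0.44, Vcan at 0.42 ± 0.53 and Col7a1 at 0.32 ± 0.36. Igfbp7 was lower and Col4a5 higher in both samples (-0.82 and -0.98 for Igfbp7, 1.27 and 0.86 for Col4a5), whereas the pairs of Col13a1 and Col7a1 differed in sign. The pairs of Fn1 (-0.43 and -0.47) and of Vcan (0.48 and 0.37) each had 1 sign. For Fn1 the direction was lost without sample 2 of Il10-null (0.01), and for Col7a1 without sample 1 of Il10-null (-0.01). For Vcan it was lost without sample 1 of wild type (-0.10) or sample 2 of Il10-null (-0.05). Such a fit no longer pairs the sample numbers, and Fn1 was higher in sample 1 in every group. Col4a5 dropped to 0.56 (unadjusted p 0.173) without sample 1 of Il10-null, and with the hybridisation day as a block Eln stood at -0.12.

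Over the class, 0 of the 40 matrix genes were called in C57BL/6J by limma, as were 0% of all tested probe sets. Igfbp7, Col4a5 and Lama3 had an unadjusted p under 0.05 (0.00679, 0.0210 and 0.0409), which 1.58% of all probe sets had. Il10-null pools lay wholly above wild type for 2 genes and wholly below for 7, against 12.6% and 13.6% of all probe sets. Of the 40, 28 were lower by any amount (51.1% of all probe sets were), with a median of -0.07 against -0.005 over all. The fibrillar collagens had a median of -0.29, which came from sample 2 (-0.61) and not from sample 1 (0.02). Col3a1 showed this at -0.36 ± 0.36 (interval -1.20 to 0.47), and Col1a2 at -0.43 ± 0.46, with 0.02 in sample 1 and -0.88 in sample 2.

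In C3H/HeJBir, again none of the 40 passed. Vcan was lower by the most (-0.85 ± 0.53), then Col8a1 (-0.79 ± 0.32, interval -1.52 to -0.06), Lama2 (-0.66 ± 0.52) and Col5a2 (-0.55 ± 0.41). Higher were Col26a1 (0.51 ± 0.59), Col5a1 (0.45 ± 0.21, interval -0.05 to 0.94), Col6a3 (0.32 ± 0.36) and Col13a1 (0.29 ± 0.44). Col8a1 had an unadjusted p of 0.0372 and an adjusted p of 0.999 by limma, and was lower in both samples (-1.29 and -0.28). Col5a1 was higher in both (0.30 and 0.59), though its other probe set (mean 59.1) gave a group difference of 0.05. Col26a1 was also higher in both (0.80 and 0.23). Vcan and Col8a1 were carried by sample 1 of Il10-null: without it they stood at -0.21 and -0.41, in the opposite order, and with the hybridisation day as a block at -0.42 and -0.44. Without the same pool the differences of Lama2 and Col5a2 turned to 0.15 and 0.17 and that of Col26a1 to -0.31, and without sample 2 of Il10-null that of Col6a3 turned to -0.27. Leaving out sample 2 of wild type turned Col13a1 to -0.30 and Col26a1 to -0.03.

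The C3H/HeJBir pairs disagreed as a class. For 29 of the 40 genes, Il10-null was below wild type in sample 1 and above it in sample 2, which held for 28.6% of all tested probe sets, and for 0 genes it was the reverse (21.4% of all). The median difference was -0.37 in sample 1 and 0.25 in sample 2, and -0.02 for the group means, against -0.009 over all probe sets. Fibrillar collagens had the widest gap, with -0.87 in sample 1 and 0.33 in sample 2: Col3a1 stood at -0.88 and 0.26, and Col1a2 at -0.87 and 0.58. The 8 laminins had medians of -0.47 and 0.39, and the 4 proteoglycans of -0.63 and 0.10. Only the sample 2 values compare pools hybridised on the same day. In C57BL/6J the pairs ran the other way, with 20 of the 40 genes higher in Il10-null in sample 1 and lower in sample 2 (23.8% of all) and 4 the reverse (24.7%).

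Counts of calls in C3H/HeJBir were 0 of 40 matrix genes against 0.0134% of all probe sets at an adjusted p under 0.05 by limma. At an unadjusted p under 0.05 there was 1 matrix gene, against 2.83% of all. Without sample 2 of Il10-null there were 10, beside 708 of the 7453 probe sets, and none was called (smallest adjusted p 0.164 by limma). Il10-null pools were wholly higher for 3 genes (11.3% of all) and wholly lower for 4 (12%).

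**Figure D4:**
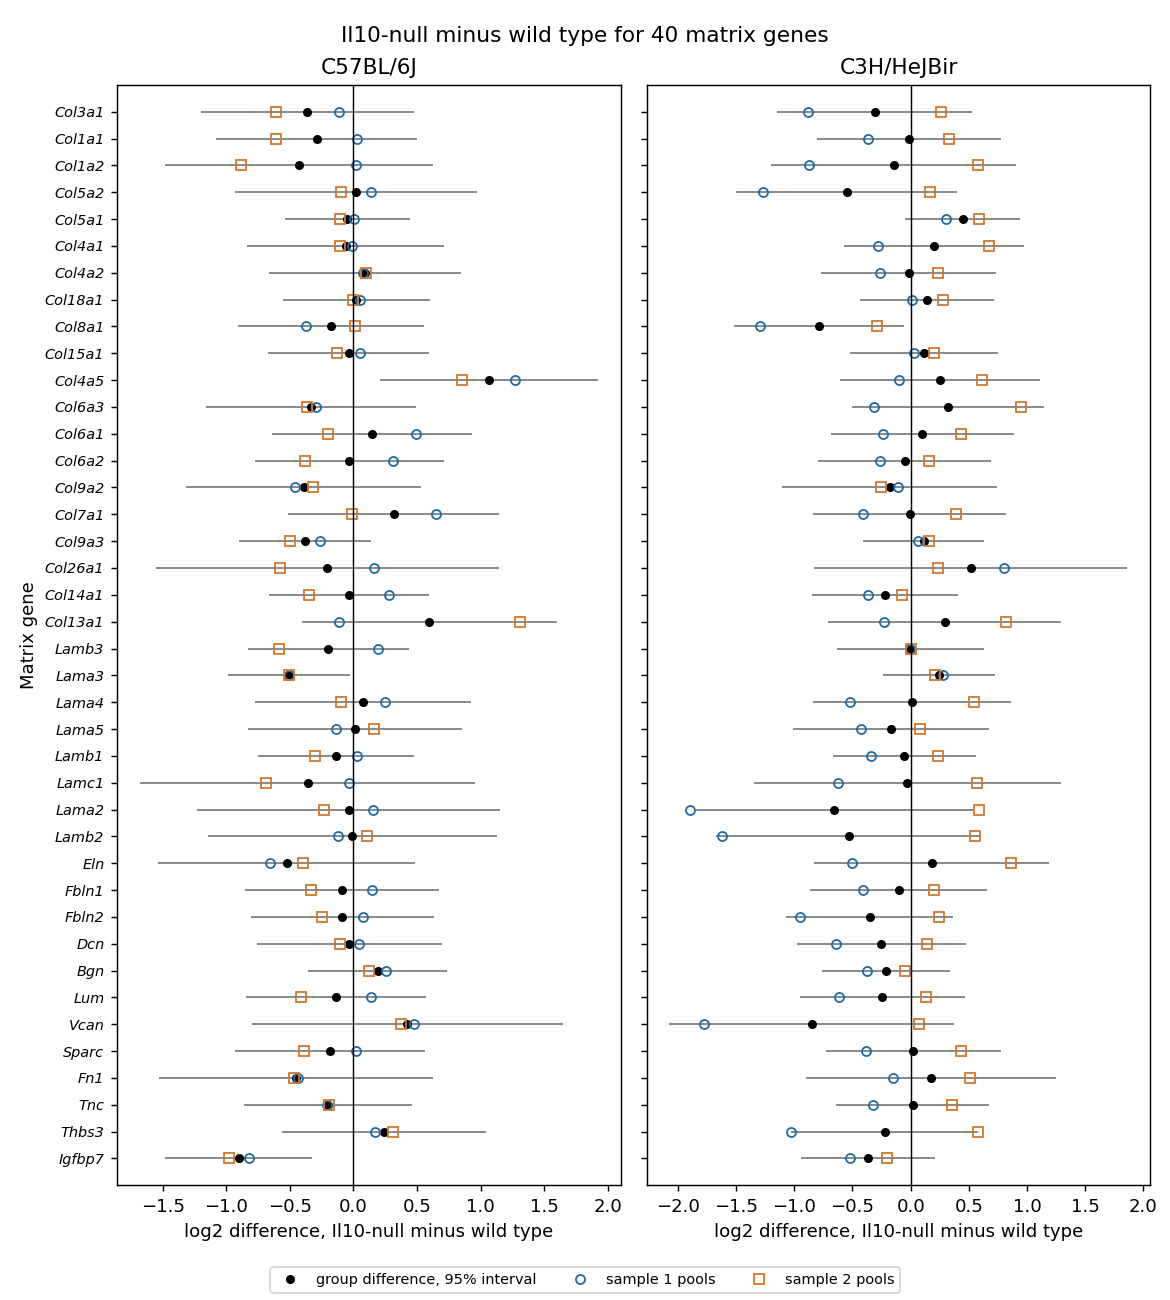
Log2 difference between Il10-null and wild type for the 40 matrix genes in C57BL/6J and in C3H/HeJBir; filled symbols are the difference of the group means with limma's unadjusted 95% interval, open circles the sample 1 pair and open squares the sample 2 pair. In C3H/HeJBir the circles lie below 0 and the squares above it for 29 of the 40 genes, and Igfbp7 lies below 0 at -0.90 in C57BL/6J and -0.36 in C3H/HeJBir.

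The difference between the Il10 effects, C3H/HeJBir minus C57BL/6J, was tested directly and called no matrix gene and 0% of all probe sets by limma. Lama3 had the only unadjusted p under 0.05 among the 40 (0.0343, against 1.5% of all probe sets), with a difference of 0.75 ± 0.30 (interval 0.07 to 1.43), 0.79 in sample 1 and 0.71 in sample 2. Its own Il10 differences were -0.51 in C57BL/6J and, from 127 to 153, upward in C3H/HeJBir. Larger or similar in size but less exact were Col26a1 (0.72 ± 0.83), Eln (0.71 ± 0.62) and Col6a3 (0.65 ± 0.51) upward, and Vcan (-1.27 ± 0.75), Col4a5 (-0.81 ± 0.53), Lama2 (-0.62 ± 0.73) and Col8a1 (-0.61 ± 0.45) downward. Over the 40 genes the median was 0.02, from -0.48 in sample 1 and 0.54 in sample 2. Without 1 pool, the sign turned for Lama2 (0.19) and Col26a1 (-0.10), both without sample 1 of C3H/HeJBir Il10-null, and for Eln (-0.04), without sample 2 of it. Vcan stood at -0.63 and Col8a1 at -0.23 without the former, Col6a3 at 0.06 without the latter, and Col4a5 at -0.31 without sample 1 of C57BL/6J Il10-null.

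Averaged over the strains, Igfbp7 was the matrix gene that differed most steadily with Il10. Its average difference was -0.63 ± 0.18 (interval -1.04 to -0.23), -0.67 in sample 1 and -0.59 in sample 2, with an unadjusted p of 0.00705 and a limma adjusted p of 1.00. No matrix gene was called (0% of all probe sets), 2 had an unadjusted p under 0.05 (Igfbp7 and Col4a5, against 3.09% of all), 0 were higher in every Il10-null pool of each strain (2.27% of all) and 1, Igfbp7, was lower (1.99%). Col4a5 averaged 0.66 ± 0.26, Col13a1 0.44 ± 0.31, Col5a1 0.20 ± 0.15 and Col26a1 0.15 ± 0.42, while Col8a1 averaged -0.48 ± 0.22, Lama2 -0.35 ± 0.37 and Col3a1 -0.34 ± 0.26. Lama2 and Col26a1 had no settled direction: with the hybridisation day as a block they stood at 0.18 and -0.17, and without sample 1 of C3H/HeJBir Il10-null at 0.06 and -0.26. Col3a1 stood at -0.06 without the same pool, and Col8a1 at -0.14 with the day as a block. For the average Il10 difference that block rests on the sample 2 pools alone, as the sample 1 genotypes were hybridised on different days. The median of the 40 was -0.10, against -0.012 over all.

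Between the strains, Lama3 was the matrix gene with the smallest p. In wild type it was lower in C3H/HeJBir, with a difference of -0.95 ± 0.21 (interval -1.43 to -0.47), a ratio of 0.518 on the scale of the test, and almost the same size in each sample (-0.98 and -0.92, each within a hybridisation day). Its adjusted p by limma was 0.195, so it was not called. The other large differences in wild type were Eln at -0.89 ± 0.44 (-1.18 and -0.59), Col1a2 at -0.43 ± 0.46 and Col1a1 at -0.39 ± 0.34 downward, and Vcan at 1.10 ± 0.53 (1.90 and 0.30), Col4a5 at 0.51 ± 0.37, Lamc1 at 0.49 ± 0.57 and Col13a1 at 0.47 ± 0.44 upward. Lamc1, the gamma chain of most laminins, read 25.5 in sample 1 of C57BL/6J wild type and 108 in sample 2, and its sign turned to -0.36 without the former. Without sample 1 of C3H/HeJBir wild type Col13a1 turned to -0.12. Vcan dropped to 0.58 without sample 1 of C57BL/6J wild type, and Col4a5 to 0.21 without sample 2. In wild type 0 of 40 matrix genes were called against 0.403% of all probe sets, and 1 had an unadjusted p under 0.05 against 5.68%. C3H/HeJBir pools lay wholly above for 5 genes (14% of all) and wholly below for 8 (17%).

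In Il10-null mice the strain differences of the matrix genes were not called either (0 of 40 by limma, against 0.295% of all). An unadjusted p under 0.05 was found for 0 of them, against 5.17% of all, and the pools were wholly higher in C3H/HeJBir for 4 (11.9%) and wholly lower for 3 (15.3%). Lama3, with -0.20 ± 0.21, was closer between the strains than in wild type. The largest differences were Lama2 (-0.86 ± 0.52), Thbs3, a thrombospondin (-0.79 ± 0.35), Lamb2 (-0.72 ± 0.49) and Bgn (-0.36 ± 0.24) downward, and Lamc1 (0.82 ± 0.57), Col26a1 (0.52 ± 0.59), Igfbp7 (0.49 ± 0.25) and Col6a3 (0.40 ± 0.36) upward. Lama2 and Lamb2 were carried by sample 1, with -1.95 and -1.69 there and 0.24 and 0.26 in sample 2. Thbs3 was lower in both samples (-1.16 and -0.42). Without sample 1 of C3H/HeJBir Il10-null, Lamb2 stood at 0.07, Lama2 at -0.05, Thbs3 at -0.38, Bgn at -0.22 and Col26a1 at -0.30, and without sample 2 Col6a3 stood at -0.19. Lamc1 stood at 0.30 without sample 1 of C57BL/6J Il10-null, and Igfbp7 at 0.27 without sample 2. As a class, 27 of the 40 genes were below C57BL/6J in sample 1 and above it in sample 2 (26.4% of all probe sets), and 2 the reverse (25.5%). The class median was -0.43 in sample 1 and 0.33 in sample 2.

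Averaged over genotypes, 0 of 40 matrix genes were called between the strains, against 1.11% of all probe sets. Lama3 had the only unadjusted p under 0.05 (8.43% of all had one) at 0.00452, with -0.57 ± 0.15 (interval -0.91 to -0.23) and an adjusted p of 0.187 by limma. It was also the only one of the 40 lower in C3H/HeJBir in all pools of both genotypes (5.41% of all were), and 0 were higher (3.69%). The other averages were Thbs3 at -0.56 ± 0.25, Lama2 at -0.55 ± 0.37, Eln at -0.53 ± 0.31, Lamc1 at 0.66 ± 0.41, Vcan at 0.46 ± 0.38, Col13a1 at 0.32 ± 0.31 and Igfbp7 at 0.22 ± 0.18. Without sample 1 of C3H/HeJBir Il10-null Eln stood at -0.16 and Lama2 at -0.14. The wild-type and Il10-null strain comparisons and the Il10 comparisons share pools, so their values are set side by side and not counted as separate evidence.

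The calls in this biology came from 3 genes outside the 56 that the symbol rule matched: Mmp7, Colgalt1 and Tnxb. Tnxb also encodes a matrix protein, but its symbol is not in the rule. All were called between the strains, where 0.403% (wild type), 0.295% (Il10-null) and 1.11% (average) of all tested probe sets were called. Mmp7 (matrilysin), a matrix metalloproteinase that also activates Paneth cell defensins, read 7.03 and 5.84 in C57BL/6J wild type, 12.4 and 12.1 in C57BL/6J Il10-null, 184 and 115 in C3H/HeJBir wild type, and 308 and 225 in C3H/HeJBir Il10-null. All C3H/HeJBir pools were above all C57BL/6J pools, and within each genotype 3.69% of all tested probe sets were higher in every C3H/HeJBir pool. Mmp7 rose from C57BL/6J to C3H/HeJBir by 3.17 ± 0.28 in wild type (limma adjusted p 0.00404) and by 3.56 ± 0.28 in Il10-null (0.00271), and on average by 3.36 ± 0.20 (0.000229). The wild-type call was lost without either C57BL/6J wild-type pool, with an adjusted p of up to 0.0648, and the wild-type difference ran from 1.69 to 4.02 over the alternatives, with C57BL/6J values near the pseudocount. Mmp7 was the only call among the 10 tested of 26 matrix remodelling enzymes and inhibitors, of which 20 were on the array. Next in size in the Il10 comparisons were Plaur, the urokinase receptor, at 0.82 ± 0.44 in C57BL/6J and Mmp7 at 0.81 ± 0.28 in C3H/HeJBir, neither of them called, and Plat, a plasminogen activator, at 1.19 ± 0.46 for the difference between these effects.

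Colgalt1, the galactosyltransferase of collagen hydroxylysines, read 191 and 145, 178 and 115, 79.7 and 78.0, and 58.5 and 62.6. It was lower in every C3H/HeJBir pool than in any C57BL/6J pool (within each genotype, 5.41% of all tested probe sets were). Colgalt1 fell by 1.05 ± 0.19 on average over the genotypes (limma adjusted p 0.0485), though neither genotype alone passed (-0.98 ± 0.27, adjusted p 0.382, and -1.11 ± 0.27, 0.264). Under 12 of 17 alternatives its call was lost, among them the removal of any 1 of the 8 pools, with adjusted p from 0.0347 to 0.201 over the 17. The other 10 tested of 13 collagen processing genes on the array were not called in any comparison, and the largest Il10 differences were Plod3, a lysyl hydroxylase, at 0.35 ± 0.36 in C57BL/6J and P4ha2, a prolyl hydroxylase, at 0.61 ± 0.33 in C3H/HeJBir.

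Tnxb encodes tenascin-X, which links collagen fibrils. It read 154 and 85.4, 144 and 92.7, 20.3 and 10.9, and 16.3 and 58.3. Every C3H/HeJBir pool of Tnxb was below every C57BL/6J pool (within each genotype, 5.41% of all tested probe sets were lower). On average it fell by 1.90 ± 0.33 (limma adjusted p 0.0415), and this call was lost under 12 of 17 alternatives (0.0121 to 0.175), among them the block on the sample number and the removal of any 1 pool other than sample 2 of C3H/HeJBir Il10-null. Within a genotype it was not called (-2.26 ± 0.47, adjusted p 0.156, in wild type; -1.54 ± 0.47, 0.560, in Il10-null). It was the only call among 15 tested of 24 other matrix proteins on the array, and 1.11% of all tested probe sets were called for the average strain difference. In the Il10 comparisons the largest of these were Fmod (fibromodulin) at -1.13 ± 0.54 in C57BL/6J and Ibsp (bone sialoprotein) at -1.36 ± 0.54 in C3H/HeJBir.

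Receptors and the TGF-beta pathway had no call by limma in any of the 7 comparisons, and at most 1 gene of either list had an unadjusted p under 0.05 in a comparison. Such genes occurred only for strain in Il10-null and for average strain, where 5.17% and 8.43% of all tested probe sets had such a p. Of 21 matrix receptors on the array 17 were tested, and the integrin chain Itga6, which binds laminins, was the largest for Il10 (0.46 ± 0.40 in C57BL/6J and 0.50 ± 0.40 in C3H/HeJBir). Between strains it was Ddr2, a collagen receptor (-0.75 ± 0.53 in wild type and -0.47 ± 0.53 in Il10-null). Of 21 genes of the TGF-beta pathway 12 were tested. Acvrl1, a type I receptor of the family, stood at -0.48 ± 0.34 for Il10 in C57BL/6J and at -0.72 ± 0.34 for strain in wild type, the latent TGF-beta binding protein Ltbp3 at 0.40 ± 0.36 for Il10 in C3H/HeJBir, and the inhibitory Smad7 at -0.56 ± 0.22 for strain in Il10-null.

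The 16 matrix genes below the filter had means from 2.25 to 35.6 and were Col2a1, Col11a1, Col11a2, Col10a1, Col4a3, Col4a4, Col9a1, Col12a1, Col17a1, Col19a1, Col22a1, Lama1, Nid1, Nid2, Fbn2 and Thbs2. In a fit without a filter none of the 56 was called, and the medians of all 56 lay between -0.14 and 0.07 over the 7 comparisons. Among the 16, Col4a4 was lower in C3H/HeJBir wild type (-0.98 ± 0.25, limma adjusted p 0.472), and Fbn2, a fibrillin of microfibrils, was higher in C3H/HeJBir Il10-null than in C3H/HeJBir wild type (1.06 ± 0.31, adjusted p 1.00), neither passing the test; these were chosen after their values were seen.

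Other probe sets of the same gene did not always give the same difference. They disagreed by more than 1 on the log2 scale for Lamc1 (-0.36 against 1.00 for Il10 in C57BL/6J, and 0.82 against -0.31 for strain in Il10-null), for Col13a1 (0.47 against -0.84 for strain in wild type) for Col9a3 (-0.38 against 0.76 for Il10 in C57BL/6J, and 0.49 against -0.82 for the difference between the Il10 effects) and for Col18a1. Those other probe sets of Lamc1, Col13a1 and Col9a3 had means of 12.6, 13.6 and 13.5, close to the pseudocount. For Col18a1 the probe set with the second highest mean (45.8, above the filter) read 73.0 and 24.95, 101 and 37.3, 62.6 and 36.2, and 21.4 and 9.93, lowest in both C3H/HeJBir Il10-null pools. It gave -1.18 against 0.14 by the main probe set for Il10 in C3H/HeJBir, -1.60 against 0.12 for the difference between the Il10 effects, and -1.495 against -0.13 for strain in Il10-null (unadjusted p 0.0237). Another, with a mean of 17.4, gave -1.05 for the difference and 0.81 for strain in wild type, where the main one gave -0.25. The other Eln probe set (mean 54.7) gave -0.15 for strain in wild type, against -0.89 by the main one. It gave -0.15 against -0.52 for Il10 in C57BL/6J, and -0.14 against 0.71 for the difference between the Il10 effects. For type I collagen the other probe sets lay well above the filter, and the direction still turned: Col1a1 stood at -0.39 for strain in wild type against 0.17 by its other probe set (mean 422), and Col1a2 at -0.43 against 0.27 (mean 282). For Il10 in C57BL/6J these other probe sets gave 0.07 and 0.22. The other Col3a1 probe sets had the sign of the main one for Il10 in C57BL/6J (-0.16 and -0.20), so the lower mean there held for type III but not for type I collagen, and for none of them beyond the spread between pools.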

How the data were processed

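Each pool was 1 array, and groups were read from the labels as strain and Il10 genotype. The authors deposited a linear intensity for every probe set, between 0.03 and 12860. The summary algorithm, scaling target and background correction remain not given in the sources used here. Array medians ran from 50.1 to 62.2, and the deposited scaling was kept (array means differed by a ratio of up to 1.05). The hybridisation day came from the deposited experiment files. Probe sets carried 1 gene symbol (10833), several (396) or none (1193). Of those with 1 symbol, 10817 were matched to the RefSeq table of GRCm38.p6.

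The deposited intensities were put on a log2 scale after adding 11.07 (their 20th percentile). A mean of 37.0 or more (the 40th percentile of means) was required for testing, which 7453 probe sets of 5688 genes met. A model of 4 group means was fitted by limma's lmFit and eBayes (limma 3.58.1, R 4.3.3), with 4 degrees of freedom from residuals and 4.23 from the prior, and with two-sided p-values adjusted by Benjamini-Hochberg over all tested probe sets. Intervals are 95% and unadjusted. Spread between animals does not enter the p-values, only that between pools. The array's single reading per pool limits the precision of each value. No probe set was left out after the filter, and no array was left out.

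Differences are given as Il10-null minus wild type and, between strains, as C3H/HeJBir minus C57BL/6J. The matrix genes and the gene lists were chosen with earlier results of these data known. The text names all called matrix genes or, with none, the 4 with the largest difference in each direction; for levels, the brightest 2 of each class; genes whose probe sets disagreed by over 1; and of each list the called genes or the 1 with the largest difference. Other genes named in the description of levels were chosen after their values were seen. Deviations of pools with the same sample number from their group means correlated at 0.198 to 0.332 over 6 pairs of groups. The numbers therefore pair the pools, and a block on them was an alternative. Further alternatives were 2 other pseudocounts (2.76 and 56.7), no filter, quantile normalization, a common median, a block on the hybridisation day, a threshold of 0.1, averaged probe sets, a fit of the compared groups alone, and leaving out each pool. Arrays shared at most 0.0966% of values exactly, so all 8 were kept as separate pools. Promoter sequences are RefSeq's for GRCm38.p6.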

Additional observations from a re-analysis of the deposited data

How the results depend on the processing

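No matrix gene was called under any alternative that was run. The lowest adjusted p of a named matrix gene was 0.0873, for the average strain difference without 1 pool, and 0.112 under the other settings. With the sample number as a replicate block, the counts of called probe sets were 0, 1 and 0 for Il10 in C57BL/6J, Il10 in C3H/HeJBir and their difference, 31 and 23 for strain in wild type and in Il10-null, and 0 and 96 for the average Il10 and strain effects. Apart from Tnxb, whose average strain call it ended, the block changed no call of a gene named here. Of 1071 values of single named genes under alternatives, 189 moved by over 1.5 times or turned in sign, 133 of them when 1 pool was left out. With the pseudocount of 56.7, Igfbp7 stood at -0.54 for Il10 in C57BL/6J and at -0.39 on average.

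Without sample 2 of C3H/HeJBir Il10-null, the matrix genes with an unadjusted p under 0.05 numbered 10 for Il10 in C3H/HeJBir (708 of all probe sets), 4 for the difference between the Il10 effects (396), 8 for strain in Il10-null (819), 8 for average Il10 (598) and 6 for average strain (896), against 1, 1, 0, 2 and 1 with all pools.

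The median difference of the matrix genes depended on single pools. Leaving out 1 pool gave -0.33 to 0.066 for Il10 in C57BL/6J, -0.25 to 0.18 for Il10 in C3H/HeJBir, -0.16 to 0.32 for their difference, -0.27 to 0.09 for strain in wild type, -0.24 to 0.17 for strain in Il10-null, -0.18 to 0.07 for average Il10 and -0.15 to 0.05 for average strain. Without sample 1 of C3H/HeJBir Il10-null the median was 0.18 for Il10 in that strain, and without sample 1 of C57BL/6J Il10-null it was -0.33 for Il10 in C57BL/6J. With the hybridisation day as a block it was 0.05 for Il10 in C3H/HeJBir and 0.03 for average Il10.

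Counts over all tested probe sets moved more. For Il10 in C57BL/6J (0), the pseudocount of 56.7 gave 1. For Il10 in C3H/HeJBir (1), the pseudocount of 2.76, no filter, the common median, the day block, the compared groups alone and averaged probe sets each gave 0. For strain in wild type (30), the counts were 53 with the pseudocount of 56.7, 46 at a threshold of 0.1 and 49 with the compared groups alone. For strain in Il10-null (22), they were 45 with the pseudocount of 56.7, 14 with no filter, 6 with the day block, 44 at a threshold of 0.1, 12 with the compared groups alone and 14 with averaged probe sets. Without 1 pool they ran from 0 to 7 for Il10 in C3H/HeJBir, 2 to 39 for strain in wild type, 4 to 34 for strain in Il10-null, 0 to 11 for average Il10 (0 with all pools) and 39 to 106 for average strain (83 with all pools). The cause was not tested. The limit throughout is 2 pools a group, with intensities near the pseudocount for Vcan, Col4a5 and Col13a1. Tnxb in C3H/HeJBir wild type and Mmp7 in C57BL/6J were also near it.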
